A study of Mus musculus with 8 samples.

Results

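Late GFP- cells, sorted at embryonic day (E) 7.5 as negative for a Mesp1 reporter, were set against the first GFP+ cells, sorted at E6.5 as positive for it. The 2 groups were defined by their labels, and the comparison was chosen with earlier results of these data known. It used 4 of the 8 arrays of the series, 2 arrays of GFP- cells at E7.5 and 2 of GFP+ cells at E6.5. All cells came from gastrulating mouse embryos of the genotype Mesp1-rtTA/Teto-H2B-GFP, in which a transactivator under Mesp1 control drives a nuclear green histone. The remaining 4 arrays, 2 of GFP+ cells at E7.5 and 2 of GFP- cells at E6.5, carried the same alleles and are given for reference. Each array held amplified RNA of 50 living cells (25 PCR cycles) on an Affymetrix Mouse Genome PM array. The sources used here give no strain, no inducing drug and no number of embryos per sort, and they call the 2 arrays of a group biological replicates. GFP- means reporter-negative at sorting, so it includes any mesoderm sorted as lacking GFP, along with all other GFP- cells of the embryo. The 2 groups differ in both stage and fraction, and from these 4 arrays alone the contributions of stage and fraction cannot be told apart.

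At E6.5 the primitive streak begins to form at the posterior side of the epiblast, and Eomes, Mixl1 and Mesp1 mark the cells that leave it as the earliest mesoderm. Mesp1 is switched on only briefly in each cell and is followed by programmes of lateral, cardiac, vessel-forming and paraxial mesoderm. By E7.5 the streak has lengthened, Hox and caudal homeobox genes mark posterior position, and retinoic acid synthesis starts in the mesoderm.

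The question was what the late negative cells lacked against, and what they had in common with, the first Mesp1 mesoderm. Late GFP- cells, like GFP+ E7.5 cells, had higher levels of a few presomitic mesoderm genes than the early GFP+ cells. Of 27 measured streak genes, 12 were at least 2-fold lower in late GFP- cells within both replicate numbers, against 0.863% of all genes tested. That count carries no test and supports no claim about streak genes as a set. The mesenchymal matrix gene Fn1 was at a level close to that of the early GFP+ cells. By the interval rule given below, Fn1 was the only close gene among 16 measured mesenchyme genes (6.25%). It was also the only one among 18 measured matrix genes (5.56%), against 23.1% of all genes tested. Of 11706 genes tested, 3 rose (0.0256% of those tested) and 0 fell (0%) in GFP- E7.5 cells against GFP+ E6.5 cells (limma with Benjamini-Hochberg adjustment over all genes, threshold 0.05). Without adjustment, 558 genes had a p under 0.05. Levels are log2 RMA values, a scale of normalized array brightness on which 1 unit is a 2-fold step. Each difference below is the GFP- E7.5 mean minus the GFP+ E6.5 mean, and SE is its standard error from that fit.

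Aldh1a2, the gene of a retinoic acid-making enzyme, was at 8.69 and 9.91 on the GFP- E7.5 arrays, against 3.52 and 3.02 on the GFP+ E6.5 arrays. The groups lay far apart, and the difference was 6.03 (SE 0.55, limma adjusted p = 0.0451). Foxc2, a forkhead factor of paraxial and vessel-forming mesoderm, was at 7.90 and 8.22 in GFP- E7.5 cells, against 3.50 and 2.79 in GFP+ E6.5 cells. Its difference was 4.91 (SE 0.46, limma adjusted p = 0.0451). For both of these genes the GFP+ E6.5 mean (3.27 for Aldh1a2 and 3.14 for Foxc2) lay below 4.38, the value used to filter out low signals, so the size of these differences is uncertain. Msgn1, a basic helix-loop-helix regulator of presomitic mesoderm, was at 10.00 and 9.98 in GFP- E7.5 cells, against 6.29 and 6.48 in GFP+ E6.5 cells. It was measurable in both groups and rose by 3.6 (SE 0.31, 12.1-fold, limma adjusted p = 0.0451). Within replicate numbers 1 and 2 the difference was 5.17 and 6.89 for Aldh1a2, 4.40 and 5.43 for Foxc2, and 3.71 and 3.50 for Msgn1. GFP+ E7.5 means were 9.55 for Aldh1a2, 8.59 for Foxc2 and 9.75 for Msgn1, so the high levels were not particular to the GFP- fraction. With the replicate number as a block, Msgn1 passed (limma adjusted p = 0.0245), Aldh1a2 and Foxc2 did not (both 0.0699), and Hoxb2 and Dppa5a passed in addition (both 0.0245). Without any 1 of the 8 arrays, none of the 3 genes passed (limma adjusted p = 0.0683 to 0.362), while their differences ranged from 3.51 to 6.64.

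Sequences upstream of the genes that passed are shown as a description, and shared regulation was not tested. RefSeq (build GRCm38.p6) gave the 250 bases before the start of 2 of the 3, Aldh1a2 (chr9:71215539-71215788, plus strand) and Msgn1 (chr12:11208949-11209198, minus strand). Capitals mark matches, on either strand, to a Lef/Tcf core (CTTTGA), a T-box core (GGTGTG) or a Cdx core (TTTATG), which did not overlap each other in these windows.
Aldh1a2: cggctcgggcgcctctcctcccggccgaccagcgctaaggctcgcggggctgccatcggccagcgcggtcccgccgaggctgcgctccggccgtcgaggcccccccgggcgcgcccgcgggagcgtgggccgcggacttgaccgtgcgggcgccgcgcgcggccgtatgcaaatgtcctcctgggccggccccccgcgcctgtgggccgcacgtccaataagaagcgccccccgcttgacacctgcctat
Msgn1: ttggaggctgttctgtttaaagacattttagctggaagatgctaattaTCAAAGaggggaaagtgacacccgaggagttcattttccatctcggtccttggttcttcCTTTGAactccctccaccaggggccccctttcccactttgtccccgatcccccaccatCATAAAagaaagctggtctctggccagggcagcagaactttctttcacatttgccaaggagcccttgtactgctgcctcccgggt
The Msgn1 window held 2 matches to the Lef/Tcf core and 1 to the Cdx core, and the Aldh1a2 window held 0 matches to any of the 3 motifs. Among 32851 RefSeq windows of this length, 13.8% held the Lef/Tcf core, 16.3% the T-box core and 10.8% the Cdx core. These are matches of letters and show no binding.

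**Figure D1:**
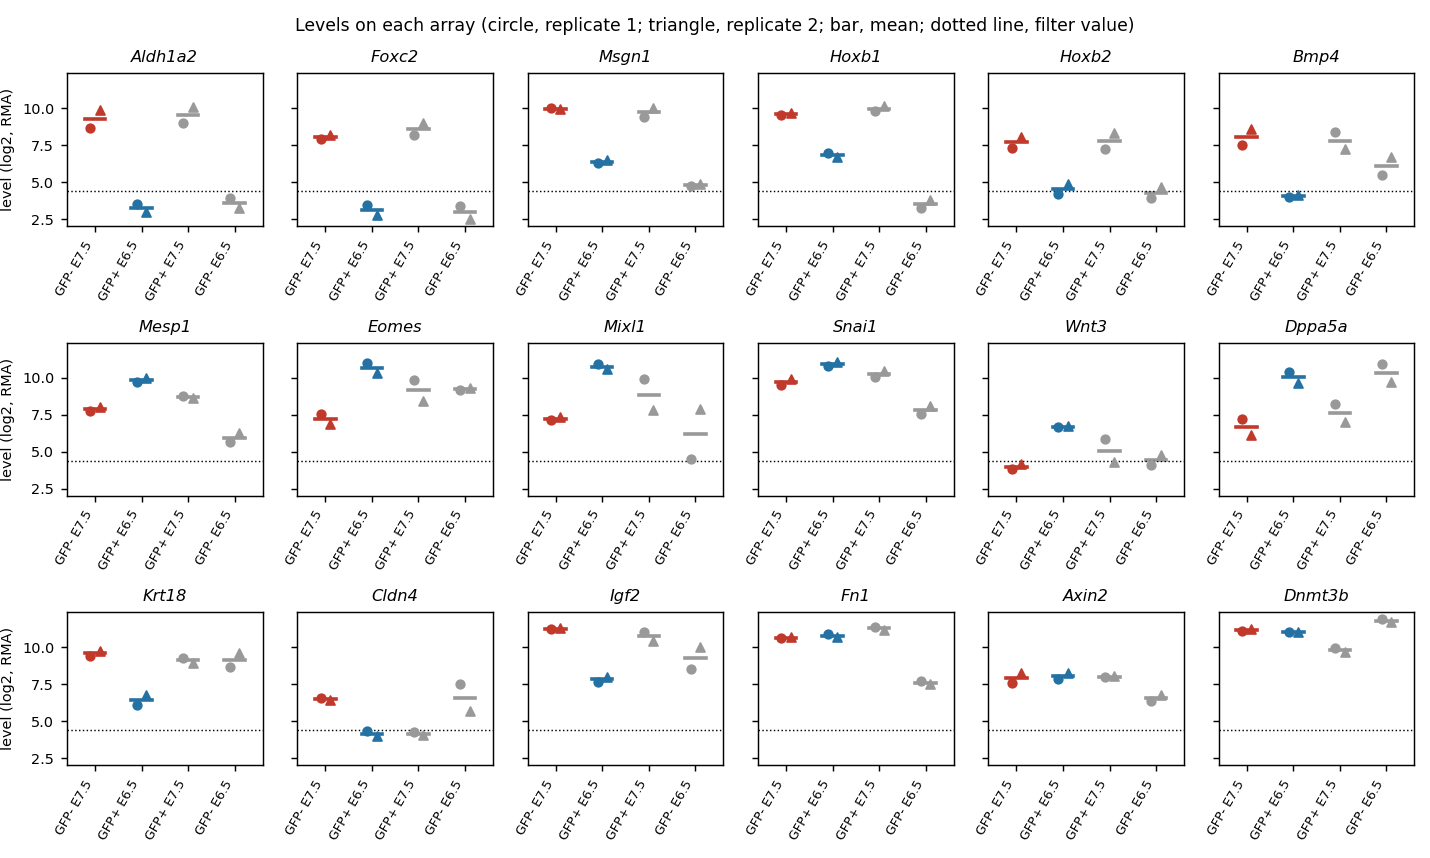
Level of 18 genes on each array, as log2 RMA values, for GFP- E7.5 (red), GFP+ E6.5 (blue) and, in grey, GFP+ E7.5 and GFP- E6.5. Circles are replicate 1, triangles replicate 2, bars the group mean and the dotted line the filter value of 4.38. Aldh1a2, Foxc2 and Msgn1 lie higher in GFP- E7.5 than in GFP+ E6.5 cells, Mesp1, Eomes and Mixl1 lie lower, and Fn1 is at 10.66 and 10.78.

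The arrays of a replicate number shared an offset, and the 2 GFP- E7.5 arrays resembled each other less (r = 0.915 across genes) than the 2 GFP+ E6.5 arrays did (r = 0.95). On the GFP- E7.5 arrays 261 genes lay over 2 log2 units apart, against 73 on the GFP+ E6.5 arrays. Several of these genes mark other cell types. Replicate 1 of GFP- E7.5 held trophoblast genes, with Elf5 at 6.6, Esrrb at 7.36, Wnt7b at 7.33 and Rhox5 at 9.77, whereas replicate 2 had 3.45, 3.02, 4.25 and 7.12. In GFP+ E6.5 cells Elf5, Esrrb and Wnt7b lay below 4.38 on both arrays. Replicate 2 of GFP- E7.5 held the visceral endoderm genes Apob at 7.0 and Apom at 6.10, where replicate 1 had 3.51 and 3.67. It also held Spink1, from the endoderm and node list, at 9.41, where replicate 1 had 3.64. The summed linear level of the 17 measured of 20 listed trophoblast genes was 5010 and 4297 in GFP- E7.5, against 2737 and 2642 in GFP+ E6.5. For the 20 measured of 26 visceral endoderm genes the sums were 1982 and 3016 in GFP- E7.5, against 2129 and 3039 in GFP+ E6.5. The visceral endoderm genes Hnf4a and Cubn had means below 4.38 in both groups, 3 of the list were 2-fold higher within both replicate numbers (Cited1, Dab2 and Rbp4) and 2 were 2-fold lower (Gata4 and Gata6). Cited1, a transcriptional coregulator gene that is also expressed in mesoderm, was at 9.27 and 9.48 in GFP- E7.5 cells, against 4.61 and 4.79 in GFP+ E6.5 cells, a difference of 4.67 (SE 0.80, limma adjusted p = 0.200). Dab2, an endocytic adaptor gene, differed by 2.42 (SE 0.80), with 0.90 and 0.07 on its other probe sets. The sums of the 17 measured of 22 listed endoderm and node genes were 3891 and 3394 in GFP- E7.5, against 1213 and 1172 in GFP+ E6.5. Of these 17 genes, Cer1, Trh, Cldn6 and Krt19 were 2-fold higher within both replicate numbers, Gsc was 2-fold lower, none passed and the median difference was 0.97 (0.51 without GFP+ E6.5 replicate 1 and 0.55 without GFP- E7.5 replicate 2). The sums of the 10 measured of 17 erythroid genes were 686 and 837 in GFP- E7.5, against 834 and 681 in GFP+ E6.5. A linear sum is carried by its brightest members, and several of these are also on other lists used here. The trophoblast sum held Phlda2 (10.61 and 10.86) and Hand1 (10.05 and 9.68) in GFP- E7.5. In GFP+ E6.5 it held Eomes (11.01 and 10.30), and the visceral endoderm sum held Gata6 (9.86 and 9.83). These sums therefore do not measure the amount of a cell type. The part of such cells in the differences was not tested. In RNA from a mixed sort, fewer cells of a type and less RNA per cell cannot be told apart.

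**Figure D2:**
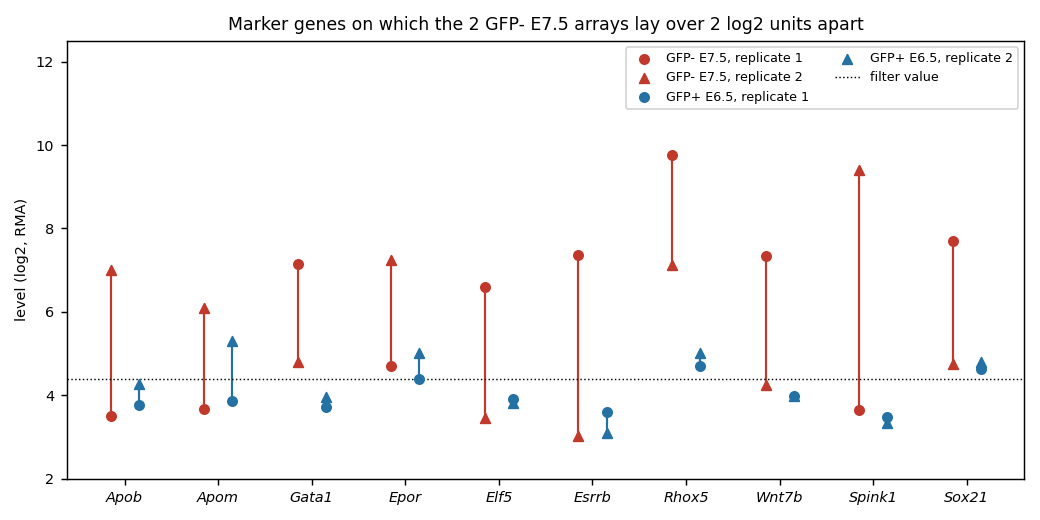
Log2 RMA level of 10 markers of trophoblast, visceral endoderm, node, blood or neural cells whose 2 GFP- E7.5 arrays lay over 2 log2 units apart (red), beside the GFP+ E6.5 arrays (blue). Circles are replicate 1 and triangles replicate 2, joined by a line. Esrrb, Elf5 and Wnt7b are high only on GFP- E7.5 replicate 1 of these 4 arrays, and Apob and Spink1 only on replicate 2.

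Since few genes passed, a second description was used, added after the test result was known and carrying no test. It counts genes that differed by at least 2-fold, in the same direction, within each of replicate numbers 1 and 2 (below, 2-fold in both replicates). By this count 210 genes (1.79%) were higher and 101 (0.863%) lower in GFP- E7.5 than in GFP+ E6.5 cells. A gene that was low in 1 group could pass the filter through the other, so counts over the measured members of a list describe them and support no claim about the list. The median difference of all genes tested was -0.02. None of the 10 lowest genes by limma's moderated t passed. The first was Dgke (-2.58, SE 0.34, limma adjusted p = 0.155, other probe set 0.04). Among them were also Sgk1 (-2.86, SE 0.45), Sgk3 (-2.44, SE 0.39, other probe sets -0.45 and -0.34), Rbm3os (-2.12, SE 0.34), Otx1 (-2.02, SE 0.34) and Polg2 (-1.96, SE 0.34). Those genes are on none of the lists, and the rest, Eomes, Mesp1, Lefty1 and Dppa5a, follow below. Where a group mean lay below 4.38, the size of a difference is uncertain. In GFP+ E6.5 cells this held also for Trap1a, Unc5c, Bmp5 and Actc1. In GFP- E7.5 cells it held for Wnt3, Dgke, Rbm3os, Otx1 and Polg2.

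Mesp1 itself, the gene whose activity the reporter was built on, was at 7.76 and 8.06 in GFP- E7.5 cells, against 9.75 and 10.03 in GFP+ E6.5 cells. The difference of -1.98 (SE 0.33) did not pass (limma adjusted p = 0.190, and 0.0952 with the replicate block), although the groups did not overlap and both replicates gave nearly the same value (-1.99 and -1.97). The Mesp1 mean of the late negative cells, 7.91, lay between those of GFP+ E7.5 (8.70) and GFP- E6.5 cells (5.95).

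Of 29 listed genes of the streak and nascent mesoderm, 27 were measured. Of these 12 were 2-fold lower in both replicates in GFP- E7.5 cells, 2 were 2-fold higher, and only Msgn1 passed the test. Their median difference was -1.23. Mixl1, a homeobox regulator of the streak, was at 7.13 and 7.33 in GFP- E7.5 cells, against 10.91 and 10.57 in GFP+ E6.5 cells, a difference of -3.51 (SE 1.09, limma adjusted p = 0.706). Eomes, a T-box factor upstream of Mesp1, was at 7.58 and 6.89 in GFP- E7.5 cells, against 11.01 and 10.30 in GFP+ E6.5 cells. Its difference of -3.42 (SE 0.53) was equal in both replicates (-3.43 and -3.41) and did not pass (limma adjusted p = 0.190). The other transcription factor genes 2-fold lower in both replicates were Mesp2 (-2.78), Lhx1 (-2.23), Gsc (-2.09), Gata6 (-1.89), Evx1 (-1.77) and Snai1 (-1.23), none of which passed. Mesp2 was below 4.38 in GFP- E7.5 cells (4.23), so its size is uncertain. The ligand genes Wnt3, needed for a streak to form, and Fgf8, needed for cells to leave it, differed by -2.71 (SE 0.53) and -1.99 (SE 0.39). Lefty2, a Nodal antagonist of nascent mesoderm, differed by -1.60 (SE 0.68). The exception beside Msgn1 was Cer1, which encodes a secreted antagonist of Nodal, BMP and Wnt ligands. Cer1 was at 9.43 and 8.48 in GFP- E7.5 cells, against 4.56 and 4.0 in GFP+ E6.5 cells, with a difference of 4.68 (SE 1.2, limma adjusted p = 0.502). That SE also took in the GFP- E6.5 arrays, at 5.49 and 9.78. The second probe set of Cer1 gave 2.11.

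Of 18 measured of 22 listed genes of pluripotency and the epiblast, 3 were 2-fold lower in both replicates, 2 were 2-fold higher and the median was -0.10 (0.069 with no filter on low values and -0.29 with a stricter one). Dppa5a, an RNA-binding protein gene of pluripotent cells, was at 7.22 and 6.16 in GFP- E7.5 cells, against 10.42 and 9.67 in GFP+ E6.5 cells. Its difference of -3.36 (SE 0.62) passed only with the replicate block (limma adjusted p = 0.231 without it). Nanog, a homeobox factor of pluripotency, differed by -2.08 (SE 0.41) and the ligand gene Fgf5 by -1.42 (SE 0.88). In the other direction, the tumour rejection antigen gene Trap1a differed by 2.59 (SE 0.59) and the adaptor gene Grb7 by 2.02 (SE 0.47). Pou5f1, which encodes Oct4, was at 10.40 and 10.61 in GFP- E7.5 cells, against 11.35 and 10.87 in GFP+ E6.5 cells, a difference of -0.61 (95% interval -1.35 to 0.14).

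Of 16 measured of 26 listed Hox, Cdx and cofactor genes, 6 were 2-fold higher in both replicates and 0 were lower, with a median of 0.79 that became 2.78 with a stricter filter on low values and 0.45 with none. Hoxb1, an anterior Hox gene of early mesoderm and hindbrain, was at 9.58 and 9.69 in GFP- E7.5 cells, against 6.98 and 6.72 in GFP+ E6.5 cells. The difference of 2.78 (SE 0.32) missed the threshold (limma adjusted p = 0.0892). Cdx1, a caudal homeobox gene that sets posterior identity, was at 8.30 and 8.68 in GFP- E7.5 cells, against 5.62 and 4.85 in GFP+ E6.5 cells. Its difference was 3.26 (SE 0.36, limma adjusted p = 0.0795). The other 4 were Hoxb2 (3.17, SE 0.50), Hoxa3 (3.15, SE 0.51), Cdx2 (2.54, SE 0.37) and the Hox cofactor gene Meis1 (2.03, SE 0.56). Hoxa3 and Meis1 lay below 4.38 in GFP+ E6.5 cells, so their sizes are uncertain, and the 3 other probe sets of Hoxa3 gave 0.37 to 0.86.

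Retinoic acid genes beside Aldh1a2 included carriers of the molecule. Of 14 measured of 18 listed, 4 were 2-fold higher in both replicates, 1 of which passed, and 0 were lower. The binding protein gene Crabp1 was at 10.05 and 9.99 in GFP- E7.5 cells, against 6.80 and 7.93 in GFP+ E6.5 cells, a difference of 2.66 (SE 0.44, limma adjusted p = 0.190). Crabp2 differed by 2.99 (SE 0.55) and Rbp4, which encodes the retinol carrier of plasma and also marks visceral endoderm, by 1.45 (SE 0.75). The list median was 0.42, against 0.12 without GFP+ E6.5 replicate 1, 0.03 without GFP- E7.5 replicate 2, 0.14 with no filter and 0.80 with the stricter one.

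Paraxial and presomitic mesoderm genes held all 3 genes that passed. Of 16 measured of 20 listed, 6 were 2-fold higher in both replicates (Aldh1a2, Foxc2, Msgn1, Cdx1, Cdx2 and Foxc1), and Mesp2 was lower. The list median was 0.70, against 1.10 without GFP- E7.5 replicate 1, 0.47 without replicate 2, 1.93 with the stricter filter and 0.45 with none. Tbx6, a T-box factor of presomitic mesoderm, differed by 0.67 (95% interval -0.49 to 1.82), and Dll3, a Notch ligand gene, by -0.13 (95% interval -1.51 to 1.26). For those genes the interval was too wide to place the groups as alike or unlike.

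Genes of lateral and extraembryonic mesoderm had a list median of 2.11 over 16 measured of 21 listed, the highest of the 29 lists with the filter used here. The median was 0.88 with no filter on low values, where the trophoblast list was higher, 1.24 with the mean of all probe sets of a gene, and 1.40 without GFP+ E6.5 replicate 1. Of these 9 were 2-fold higher in both replicates and 0 lower, and none passed. Bmp4, a ligand that patterns ventral and extraembryonic mesoderm, was at 7.53 and 8.62 in GFP- E7.5 cells, against 3.97 and 4.16 in GFP+ E6.5 cells. Its difference was 4.0 (SE 0.59, limma adjusted p = 0.181), with an uncertain size because the GFP+ E6.5 mean (4.07) was below 4.38. Igf2, an imprinted growth factor gene, was at 11.25 and 11.29 in GFP- E7.5 cells, against 7.68 and 8.03 in GFP+ E6.5 cells, a difference of 3.42 (SE 0.50, limma adjusted p = 0.181). Its second probe set gave 4.03. The transcription factor genes Foxf1 (3.16, SE 1.08), Hand1 (2.58, SE 0.88) and Tbx20 (2.06, SE 0.54) differed more within replicate 1 than within replicate 2. Without GFP+ E6.5 replicate 1 the Foxf1 difference was 1.31 and the Hand1 difference 1.55. For Hand1 the differences were 3.79 and 1.37, and GFP+ E6.5 replicate 2 was at 8.32. Vim, the intermediate filament gene of mesenchyme, differed by 2.85 (SE 0.40), with 2.82 and 3.15 on its other probe sets. Of 11 measured of 17 listed imprinted growth genes, 5 were 2-fold higher in both replicates, among them Phlda2 (2.32, SE 0.48) and Dlk1 (2.17, SE 0.52).

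Among 18 measured of 21 listed cardiac regulators, 7 were 2-fold higher in both replicates, 2 were lower, and Foxc2 passed. Gata6 (-1.89, SE 0.89) and Gata4 (-1.35, SE 0.88), zinc finger factors of early cardiac mesoderm and endoderm, were the lower pair. Smarcd3, a chromatin remodelling subunit of the heart fields, differed by 1.66 (SE 0.71). The list median was 0.57, but 0.06 without GFP- E7.5 replicate 2, 0.17 without GFP+ E6.5 replicate 1, 1.11 without GFP- E7.5 replicate 1, 1.12 without GFP+ E6.5 replicate 2 and 1.93 with the stricter filter. Tbx5, a later factor of the first heart field, was at 4.90 and 5.11 in GFP- E7.5 cells, against 4.68 and 5.15 in GFP+ E6.5 cells, and met the interval rule for close genes given below. Its means in GFP- E6.5 (4.88) and GFP+ E7.5 cells (4.97) were similar, and all lay near 4.38. The other Tbx5 probe set had a mean of 3.48 over the 8 arrays, so whether Tbx5 was expressed is uncertain. Isl1 differed by 0.55 (95% interval -0.43 to 1.53), and Nkx2-5 had a mean below 4.38 in both groups. Of 10 measured of 13 listed sarcomere genes, Myl7 (2.07, SE 0.80) and Actc1 (1.66, SE 0.72) were 2-fold higher in both replicates. Myl7 was at 4.37 and 6.74 in GFP+ E6.5 cells, and its difference was 0.89 without replicate 1 of that group and 3.26 without replicate 2. Tnni1, a troponin gene, was at 5.84 and 8.35 in GFP- E7.5 cells, against 4.90 and 4.07 in GFP+ E6.5 cells. Actc1 was likewise higher on GFP- E7.5 replicate 2 (6.63) than on replicate 1 (4.6).

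Of 10 measured of 17 erythroid genes, Hbb-bh1, an embryonic globin gene, was the 1 that was 2-fold higher in both replicates. It was at 5.45 and 5.99 in GFP- E7.5 cells, against 3.33 and 3.35 in GFP+ E6.5 cells, a difference of 2.38 (SE 0.31, limma adjusted p = 0.155). The GFP+ E7.5 (3.29) and GFP- E6.5 (3.17) means were also below 4.38, so its size is uncertain. Gata1, the erythroid master regulator, was at 7.16 and 4.80 in GFP- E7.5 cells, against 3.71 and 3.97 in GFP+ E6.5 cells, with the 2 GFP- E7.5 arrays far apart. Lmo2, a cofactor of blood progenitors, differed by 2.62 (SE 0.63) with a GFP+ E6.5 mean (3.69) below 4.38. Kdr, a VEGF receptor gene of vessel progenitors, differed by 0.40 (95% interval -1.49 to 2.28).

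Of 20 measured of 25 listed epithelial genes, 6 were 2-fold higher in both replicates and 0 lower. The list median was 0.54, against 0.25 without GFP- E7.5 replicate 1, 0.36 without GFP+ E6.5 replicate 1, 0.92 without GFP+ E6.5 replicate 2 and 0.87 with the stricter filter. Krt18, a keratin of simple epithelia, was at 9.44 and 9.78 in GFP- E7.5 cells, against 6.08 and 6.78 in GFP+ E6.5 cells. Its difference of 3.18 (SE 0.42) did not pass (limma adjusted p = 0.155). Its partner Krt8 differed by 2.11 (SE 0.31) and Krt19 by 2.58 (SE 0.73). The tight junction genes Cldn4 (2.36, SE 0.57) and Cldn6 (1.44, SE 0.37) and the polarity gene Crb3 (1.60, SE 0.47) completed the 6. Cldn4 lay below 4.38 in GFP+ E6.5 cells (4.16), so its size is uncertain. Cdh1, which encodes E-cadherin, had levels of 6.99 and 6.99 in GFP- E7.5 cells, against 5.84 and 6.14 in GFP+ E6.5 cells, a difference of 1.00 (SE 0.31). Epcam differed by -0.04 (95% interval -1.99 to 1.92), which leaves its direction unsettled. The keratins are also expressed in trophoblast and endoderm. The trophoblast and the endoderm and node sums given above were higher on both GFP- E7.5 arrays, and the visceral endoderm sums were not. Bright genes shared with other lists weigh on those sums, so they do not measure the cell types. The part of those cells in these differences was not tested.

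Of 16 measured of 19 listed genes of mesenchyme, 4 were 2-fold higher in both replicates (Vim, Zeb1, Twist1 and Prrx2), 2 were lower (Snai1 and Dlc1), and the median was -0.01. Snai1, the repressor of E-cadherin that starts the transition, was at 9.54 and 9.93 in GFP- E7.5 cells, against 10.83 and 11.09 in GFP+ E6.5 cells. Zeb1, a later repressor of epithelial genes, differed by 1.75 (SE 0.43) on its brightest probe set, where its other 2 gave 0.29 and 0.47, with a GFP+ E6.5 mean (4.18) below 4.38. Of 18 measured of 24 listed matrix genes, 6 were 2-fold higher in both replicates and 0 lower, with a median of 0.91, and none passed. Among them were Fbn2, which encodes a fibrillin (2.42, SE 0.42), the laminin gene Lama1 (2.22, SE 0.55) and the collagen genes Col1a1 (2.17, SE 0.62), Col4a2 (1.73, SE 0.67) and Col4a1 (1.39, SE 0.46).

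In the FGF pathway all 21 listed genes were measured, 5 of them 2-fold lower and 2 higher in both replicates. The receptor gene Fgfr2 was at 9.18 and 8.91 in GFP- E7.5 cells, against 6.57 and 6.42 in GFP+ E6.5 cells, a difference of 2.55 (SE 0.28, limma adjusted p = 0.0795). Of its other probe sets 1 gave 3.55 and 1, with a low mean of 3.45, gave -0.09. Fgfr3 differed by 2.12 (SE 0.43), with 0.53 on its other probe set. On the lower side were the ligand genes Fgf8 and Fgf5 and the feedback inhibitor genes Il17rd (-1.84, SE 0.46), Spry4 (-1.43, SE 0.60) and Dusp6 (-1.43, SE 0.74). The other probe set of Il17rd gave -0.71. The list median of -0.53 became 0.03 without GFP+ E6.5 replicate 2 and -0.08 without GFP- E7.5 replicate 1. In the BMP pathway 3 of 18 measured of 20 listed were 2-fold higher in both replicates. They were the ligand genes Bmp4 and Bmp5 (2.80, SE 0.50) and the BMP target Id2 (2.08, SE 0.41). Other probe sets gave 0.76 and 1.97 for Bmp5 and 1.41 and 0.39 for Id2. Smad1, which carries the BMP signal to the nucleus, differed by -2.25 (SE 0.53), with -1.52 on its other probe set. Of 21 measured of 24 listed Wnt pathway genes, 2 were higher and 2 lower. The secreted Wnt antagonist gene Sfrp1 was at 8.50 and 7.94 in GFP- E7.5 cells, against 5.04 and 4.86 in GFP+ E6.5 cells, a difference of 3.27 (SE 0.48). Another antagonist of that family, Frzb, was at 7.78 and 6.92 in GFP- E7.5 cells, against 9.82 and 9.54 in GFP+ E6.5 cells, a difference of -2.33 (SE 0.53). In the Nodal pathway 2 of 13 measured of 16 listed were higher, Cer1 and the transducer gene Smad3 (1.32, SE 0.31), and the antagonist genes Lefty1 (-1.82, SE 0.32) and Lefty2 were lower. In the Notch pathway the effector gene Hes1 was at 6.29 and 6.47 in GFP- E7.5 cells, against 8.30 and 8.31 in GFP+ E6.5 cells, a difference of -1.92 (SE 0.42). None of these passed. Of 21 measured of 28 listed guidance genes, 3 were 2-fold higher in both replicates, the netrin receptor gene Unc5c (2.32, SE 0.43), the semaphorin receptor gene Nrp1 (2.34, SE 0.74) and the ephrin gene Efnb2 (1.12, SE 0.40), and the Eph receptor gene Epha1 was lower (-1.24, SE 0.39). Other probe sets gave 1.26 for Unc5c, 0.82 and 1.29 for Nrp1, and -1.93 and 0.11 for Epha1.

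**Figure D3:**
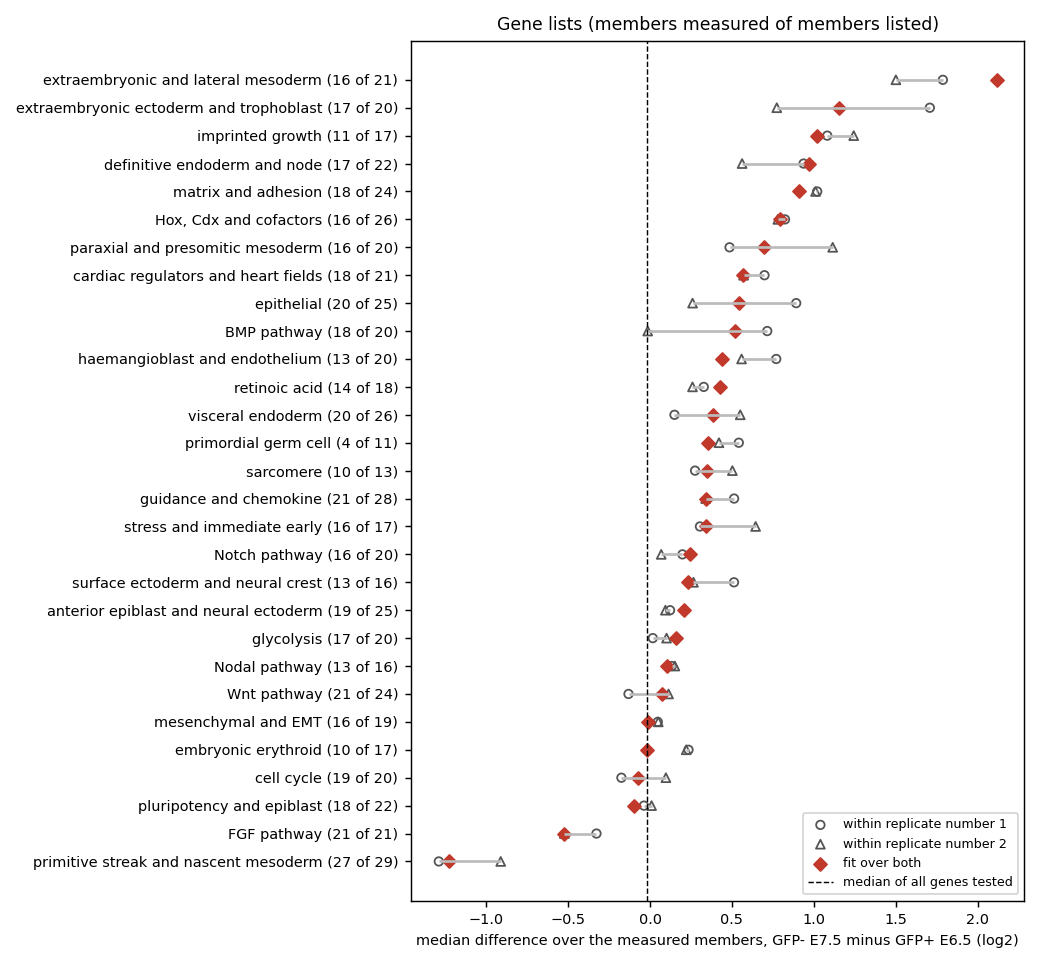
Median difference, GFP- E7.5 minus GFP+ E6.5 (log2), over the measured members of 29 gene lists, with the members measured and listed in brackets. Diamonds are the fit over both replicates, circles and triangles the medians within replicate numbers 1 and 2, and the dashed line the median of all genes tested (-0.02). The streak list lies lowest at -1.23 and the lateral and extraembryonic mesoderm list highest at 2.11, a place it did not keep with no filter on low values or with a stricter one.

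The levels that the late negative and early positive cells had in common were sought by an interval rule. A gene was called close when the 95% interval of its difference lay within -1 to 1 and both means were above 4.38, which held for 2705 of 11706 genes (23.1%). Leaving out 1 of the 4 compared arrays widened the intervals, and the number of close genes was then 766 without GFP- E7.5 replicate 1, 826 without GFP- E7.5 replicate 2, 308 without GFP+ E6.5 replicate 1 and 306 without GFP+ E6.5 replicate 2. Of the 29 lists, 13 had 0 close members, the streak list among them with 0 of 27. Glycolysis (9 of 17 measured) and cell cycle genes (9 of 19 measured) had the highest shares, 52.9% and 47.4%, and they include highly expressed genes such as Gapdh (means of 12.98 in GFP- E7.5 and 13.03 in GFP+ E6.5). In the glycolysis list the glucose transporter genes Slc2a3 (2.30, SE 0.51) and Slc2a1 (1.33, SE 0.28) stood apart from the enzymes as 2-fold higher in both replicates.

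Among close genes, the one farthest from GFP- E6.5 cells was Fn1, which encodes fibronectin, the matrix protein on which early mesoderm migrates. Fn1 was at 10.61 and 10.71 in GFP- E7.5 cells, against 10.89 and 10.67 in GFP+ E6.5 cells (difference -0.12, 95% interval -0.78 to 0.54), while GFP- E6.5 cells had a mean of 7.60. Axin2, a feedback target of Wnt signalling, was at 7.56 and 8.28 in GFP- E7.5 cells, against 7.86 and 8.24 in GFP+ E6.5 cells (95% interval -0.97 to 0.71), and 6.56 in GFP- E6.5 cells. Greb1, known as an oestrogen-regulated gene, had means of 7.92 in GFP- E7.5 and 7.98 in GFP+ E6.5 cells, and 6.26 in GFP- E6.5 cells. Rimbp2, which encodes a synaptic scaffold protein, had means of 6.38 and 6.36 in these 2 groups and 4.02 in GFP- E6.5 cells. On the other side, Ptpn3, a tyrosine phosphatase gene, had means of 5.35 in GFP- E7.5 and 5.39 in GFP+ E6.5 cells, against 7.39 in GFP- E6.5 cells. Gclm, a subunit of the enzyme that starts glutathione synthesis, had 7.22 and 6.94, against 8.66 in GFP- E6.5 cells. GFP+ E7.5 cells lay on the same side of GFP- E6.5 cells for each of these genes. Their means were 11.29 for Fn1, 8.02 for Axin2, 8.33 for Greb1, 7.23 for Rimbp2, 5.09 for Ptpn3 and 7.18 for Gclm. The distance from GFP- E6.5 cells was thus not particular to the 2 groups compared. These genes were ranked by their distance from GFP- E6.5 cells, so that distance is a description.

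Of the epiblast genes, the DNA methyltransferase gene Dnmt3b was at 11.09 and 11.24 in GFP- E7.5 cells, against 11.06 and 11.06 in GFP+ E6.5 cells (95% interval -0.55 to 0.76). GFP+ E7.5 cells had less of it, with a mean of 9.83. Lin28a, an RNA-binding regulator of early development, was close as well, with means of 10.70 in GFP- E7.5 and 10.58 in GFP+ E6.5 cells. Foxh1 and Acvr2b, a transcription partner and a receptor of Nodal signalling, were the close members of that pathway (differences of 0.25 and 0.22). Cdh2 and Meis2 had similar means without meeting the interval rule. Cdh2, the gene of N-cadherin, had means of 8.91 in GFP- E7.5 and 8.81 in GFP+ E6.5 cells (95% interval -0.93 to 1.12). Meis2, a Hox cofactor gene, had 8.14 and 7.70 in these groups (95% interval -0.40 to 1.28). Aplnr, the apelin receptor gene of migrating mesoderm, was at 9.86 and 9.58 in GFP- E7.5 cells, against 8.52 and 8.68 in GFP+ E6.5 cells, with 3.49 in GFP- E6.5 cells. Its difference of 1.12 (SE 0.30) did not pass (limma adjusted p = 0.582). Cdh2, Meis2 and Aplnr were chosen after their values were seen.

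The other 2 groups allowed each difference to be written as a sum of 2 parts. The stage part is E7.5 minus E6.5 averaged over the 2 fractions, and the fraction part is GFP- minus GFP+ averaged over the 2 stages. Of the 210 genes 2-fold higher in both replicates the stage part was the larger in 143 and the fraction part in 67, and of the 101 lower genes in 54 and 47. The 3 genes that passed lay mostly on stage, with stage parts of 5.98 (SE 0.39) for Aldh1a2, 5.27 (SE 0.33) for Foxc2 and 4.27 (SE 0.22) for Msgn1. Their fraction parts were 0.05 (SE 0.39), -0.36 (SE 0.33) and -0.67 (SE 0.22). The fraction part of Msgn1 averages unlike gaps. Its means were 4.81 in GFP- and 6.39 in GFP+ cells at E6.5, against 9.99 and 9.75 at E7.5. Hoxb1 had a stage part of 4.62 and a fraction part of -1.83.

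Over the streak list the median stage part was 0.23 and the median fraction part -1.57. Mesp1 had a stage part of 0.38 (SE 0.23) and a fraction part of -2.36 (SE 0.23), Mixl1 parts of -0.43 and -3.08, and Frzb 0.65 and -2.98. The small stage parts of these genes average changes of opposite sign. From E6.5 to E7.5 the GFP- means rose, for Mesp1 from 5.95 to 7.91, Mixl1 from 6.20 to 7.23 and Frzb from 5.22 to 7.35. The GFP+ means fell, from 9.89 to 8.70, 10.74 to 8.85 and 9.68 to 8.86, so the gap between fractions was smaller at E7.5. Eomes divided evenly, at -1.75 and -1.66. Epithelial genes had a median stage part of -0.22 and fraction part of 1.10, with Cldn4 at -0.04 and 2.40. Epiblast genes had parts of opposite sign, -0.99 for stage and 1.04 for fraction, beside a median difference near 0. Dppa5a lay almost wholly on stage (-3.03 and -0.33), as did Nanog (-2.55 and 0.47), whereas Trap1a lay on fraction (0.03 and 2.56). Fn1 also had parts that offset each other, 1.79 for stage and -1.91 for fraction.

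**Figure D4:**
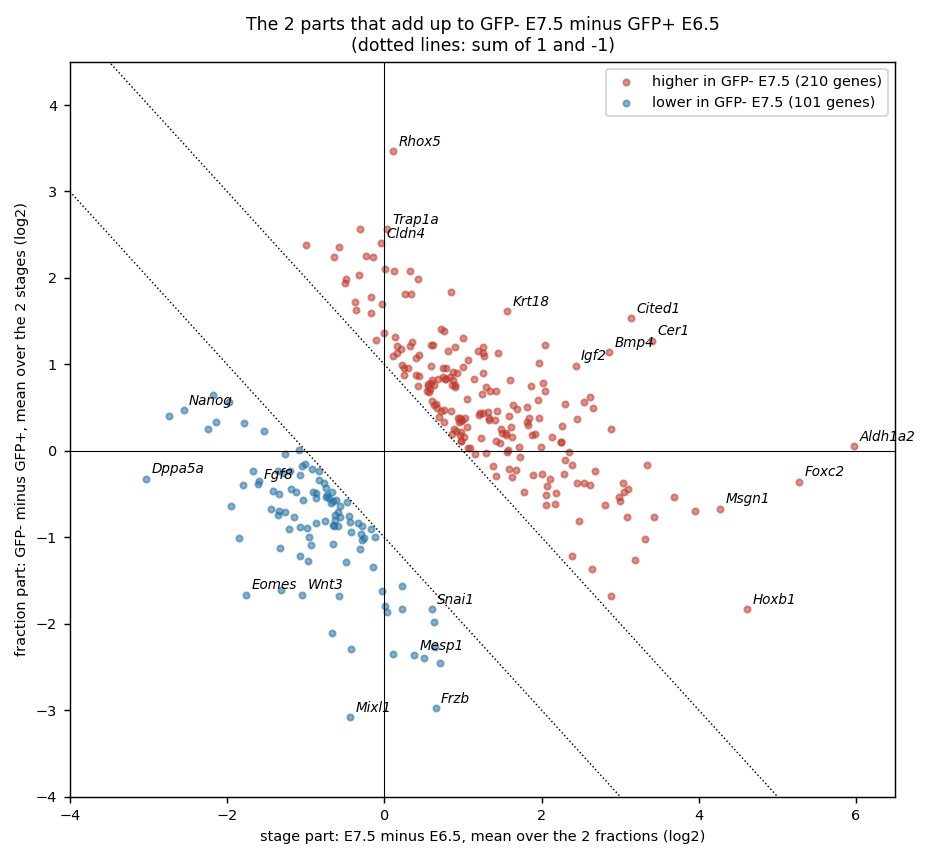
Stage part (horizontal) and fraction part (vertical), in log2 units, of the 210 genes 2-fold higher (red) and the 101 genes 2-fold lower (blue) in both replicates in GFP- E7.5 than in GFP+ E6.5 cells. The 2 parts of a gene add up to its difference, and the dotted lines mark sums of 1 and -1. Aldh1a2, Foxc2 and Msgn1 lie far along the stage axis, and Mixl1, Frzb and Mesp1 along the fraction axis. Each part is an average, and for Mixl1, Frzb and Mesp1 the stage change had opposite signs in the 2 fractions.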

How the data were processed

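RNA of 50 sorted cells per sample was amplified and hybridized to Affymetrix Mouse Genome PM arrays, per the labels' protocols. The authors deposited log2 values, 1 per probe set and array, for which the submitters' processing notes name RMA without a version. Array medians were 4.20 to 4.23 for replicate 1 and 4.54 to 4.59 for replicate 2, and no label says whether the numbers were normalized together. Of 45141 probe sets 28898 had 1 gene symbol in the platform annotation, 551 several and 15588 none. Named probe sets above the median of all values (4.38) on at least 2 of the 8 arrays were kept (18584), and each gene was represented by the one with the highest mean.

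limma 3.58.1 in R 4.3.3 was fitted to all 8 arrays with 4 group means and no block (4 residual and 3.21 prior degrees of freedom). The settings were also run on simulated arrays with independent noise. Those arrays lacked the offset shared by a replicate number, so that run does not cover it. The labels call the arrays biological replicates but do not say which embryos they came from. After group means were subtracted, arrays with the same number correlated in all 6 pairs of groups (r from 0.401 to 0.532 across genes). Replicate numbers were therefore taken as pairs in the 2-fold counts. The main fit, which gave each SE, interval and adjusted p unless a block is named, did not use this pairing. A fit with the number as a block was an alternative. An exact permutation test of 2 against 2 arrays cannot go below 0.333 (two-sided) and was not used. The number of arrays limits precision.

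The named genes were Mesp1, the genes that passed filled up to 10 per direction by the moderated t, in each of 29 lists the members that passed, the 4 with the largest difference and the 3 brightest close ones, and the 10 close genes farthest from GFP- E6.5. The remaining named genes, mostly the other members that a 2-fold count covers and markers of other cell types, were chosen after their values were seen. The groups compared, the lists and the rules were chosen with earlier results of these data known.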

Additional observations from a re-analysis of the deposited data

How the results depend on the processing

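The count of 3 genes that rose depended on the processing. It was 0 with only the 4 arrays compared, 0 with no filter on low values (17097 genes tested), 0 over every probe set whether named or not (an alternative chosen after seeing the data), 6 with a stricter filter, and 11 with a prior variance that follows the level, which shared all 3. It was 0 to 1 when any 1 array was left out, the 1 being Cited1 without either GFP- E6.5 array. Genes that fell numbered 0, but 1 with the replicate block (Dppa5a) and 1 with the prior following the level (Eomes). The mean of all probe sets and quantile normalization of all 8 arrays together kept the same 3 genes. With the replicate block, a pairing by number, 3 genes passed in all, of which 1 was shared with the fit without it.

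The count of 2705 close genes was 5593 with the replicate block and 1657 with only the 4 arrays compared, and 306 to 2430 when 1 array was left out, which leaves fewer arrays and wider intervals. Among list medians, the stricter filter, which tests fewer genes, gave 0.87 for epithelial, 1.93 for paraxial, 2.78 for Hox and Cdx and -0.29 for epiblast genes. No filter gave 0.88 for lateral and extraembryonic mesoderm and turned the epiblast median to 0.069. Leaving out 1 array gave 0.25 to 0.92 for epithelial, -0.53 to 0.032 for FGF and 0.67 to 1.26 for matrix genes. Ifitm3, a germ cell gene, ranged from -1.09 to 0.54. The cause was not tested where none is given. Of the differences recomputed for genes outside the close set, Ifitm3 changed sign, and several close genes, whose differences lie near 0, did as well (Axin2 ranged from -0.49 to 0.23 when 1 array was left out). A lone array left in a group was assumed to vary like the other groups. Low signals limit these data, since no measure of background per probe set was available to bound them.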
